A study of Mus musculus with 18 samples.

Results

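Reprogramming cultures of mouse cells carrying the factor set OCK were compared on day 19 and day 15, in a Tcf3 knockout (ko) and in wild type (wt). The 4 arrays used were 1 of ko and 1 of wt cells on day 19, and 1 of ko and 1 of wt cells on day 15, of 18 arrays in the series. They were chosen by their sample labels and paired by genotype. All 4 cultures had received OCK (Oct4, c-Myc and Klf4, without Sox2), so none was an untreated control. No siRNA was used in them. Tcf3 is the older name of Tcf7l1, an HMG-box protein that binds beta-catenin and represses Wnt target genes in pluripotent cells. The labels give the genotype and the day after the start of reprogramming. They give neither the cell type that was reprogrammed nor whether the days of a genotype came from 1 culture. They also do not say whether genotypes were grown side by side, so genotype and culture cannot be told apart. Values are log2 RMA signal of 1 probe set per gene, and any level under 5.64 (the log2 of 50) was deposited as 5.64, called the floor here. A step means day 19 minus day 15 on the log2 scale, so that a step of 1 is a 2-fold difference.

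Cells on the way to induced pluripotent stem cells (iPSC) first lose the programme of their origin and take on epithelial features, a change known as the mesenchymal-to-epithelial transition. Cell division speeds up, and the endogenous pluripotency genes are switched on later and in few of the cells. Innate immune genes, which interferons induce, are often active in cells that carry introduced vectors. Every value below is the mean over all cells of a dish. Fewer cells of a type and less RNA per cell therefore cannot be told apart.

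Of 17903 genes, 12102 to 12499 had a level over the floor on each of the 18 arrays. Tcf7l1 had 8.61 in ko and 9.07 in wt on day 19, against 9.37 in ko and 9.70 in wt on day 15. The ko arrays lay lower on both days but far above the floor, and a second probe set stepped the same way. No source used here places these probes against the deletion, so they may not check the knockout. Among the defining markers, Col1a1 and Thy1, of fibroblasts, had at least 11.62 on all 4 arrays, and Cdh1, of epithelia, at least 8.61. The markers of pluripotent cells were mixed. Zfp42 and Esrrb were at the floor on all 4 arrays, while Dppa5a had at least 7.31 on each. Nanog was at the floor in ko on day 15 only. Sox2 was at the floor in ko on day 15 and in wt on day 19. Fibroblast RNA was thus abundant on all 4 arrays.

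The day 19 arrays shared low values of a small set of genes with another group of arrays. On both day 19 arrays and on the 3 arrays of siRNA-treated partial iPSC, 10 genes were at least 0.5 lower than on each of the other 13 arrays. They were Anapc11, Btrc, Canx, Cfl1, Ctnnd1, Dcakd, Get3, Plekhj1, Ppp1r11 and Psme3. Psme3 had 7.57 in ko and 7.64 in wt on day 19, against 9.11 in ko and 9.26 in wt on day 15, and had 9.78 in ko and 9.36 in wt again on day 22. When another day's arrays were grouped with the siRNA arrays in this way, 0 to 2 genes were lower and 0 to 5 higher, the 5 on day 22. Among the 10 culture arrays alone, day 19 did not stand apart more than other days by this count: 34 genes were lower and 10 higher on day 19, against 37 and 13 on day 22 and 33 and 77 on day 11. All 10 were counted among the falls below, and 4 of them are in the class of genes down in both genotypes. What set these arrays apart was not tested, so the main results are also given with day 22 in place of day 19.

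The question of the comparison was what changed as the cultures passed from day 15 to day 19, and whether it changed in both genotypes. Genes of epithelial junctions, DNA replication, mitosis and the immediate early response were higher on day 19. Interferon-induced genes, macrophage genes, and part of the fibroblast genes and mesenchymal transcription factors, were lower. In a limma fit of all 10 culture arrays with genotype and day as terms, 3526 of 12964 genes (27.2%) passed an adjusted p of 0.05. Of these, 1795 (13.8%) rose and 1731 (13.4%) fell, and 392 and 219 of them had a mean step of at least 1. The same fit called 49 of 12845 genes (0.381%) between days 11 and 15, 1666 of 12909 (12.9%) between days 19 and 22, and 0 of 12926 (0.0%) between days 22 and 26, where 1718 had an unadjusted p under 0.05. The fit takes its error from genotype-by-day deviations over all 5 days, and deviations shared by both arrays of a day cannot be told apart from the step. Without the ko arrays of days 15 and 19, or without the wt arrays, no gene was called, and 2061 and 3901 genes then had an unadjusted p under 0.05. Without day 11 the count was 1797. With day 22 in place of day 19, 2841 of the 3526 calls (80.6%) passed in the same direction and 3393 had the same sign. Of all genes tested, 23.2% rose and 24.0% fell in that setting. It uses the same day 15 arrays, so a deviation of those arrays would appear in both settings.

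Each genotype has 1 array per day, so its own step is a difference of 2 arrays and has no replicate check. The ko steps were more spread than the wt steps: their standard deviation over genes was 0.6003 in ko and 0.447 in wt. In ko, 690 genes (5.32%) were higher by at least 1 on day 19 than on day 15 and 396 (3.05%) were lower by at least 1. In wt, 312 (2.41%) were higher and 169 (1.3%) were lower. Genes were then sorted by fold alone. A gene was up or down in both genotypes where both steps reached 1 with the same sign. It was classed in 1 genotype only where that step reached 1 and the other was under 0.5 in size. By this rule 205 genes (1.58%) were up in both, 133 (1.03%) down in both, 158 (1.22%) up in ko only, 46 (0.355%) down in ko only, 52 (0.401%) up in wt only and 6 (0.0463%) down in wt only. A single gene, Tdgf1 (0.00771%), moved by at least 1 in opposite directions. The label of 1 genotype only does not mean no step in the other. The median wt step was 0.37 for genes up in ko only and -0.36 for genes down in ko only. Of the 158 genes, 55 (34.8%) passed the limma test over both genotypes as rises, against 13.8% of all genes tested. Of the 46, 20 (43.5%) passed as falls, against 13.4%. Genes up in wt only had a median ko step of 0.13. At the edge of the rule, Pkp1 (ko step 1.68, wt step 1.00) was just inside the class up in both and Prss22 (0.997 and 1.71) just outside. Oas3 (-1.51 and -1.0015) was just inside the class down in both and Tgfb1 (-1.66 and -0.99947) just outside.

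**Figure D1:**
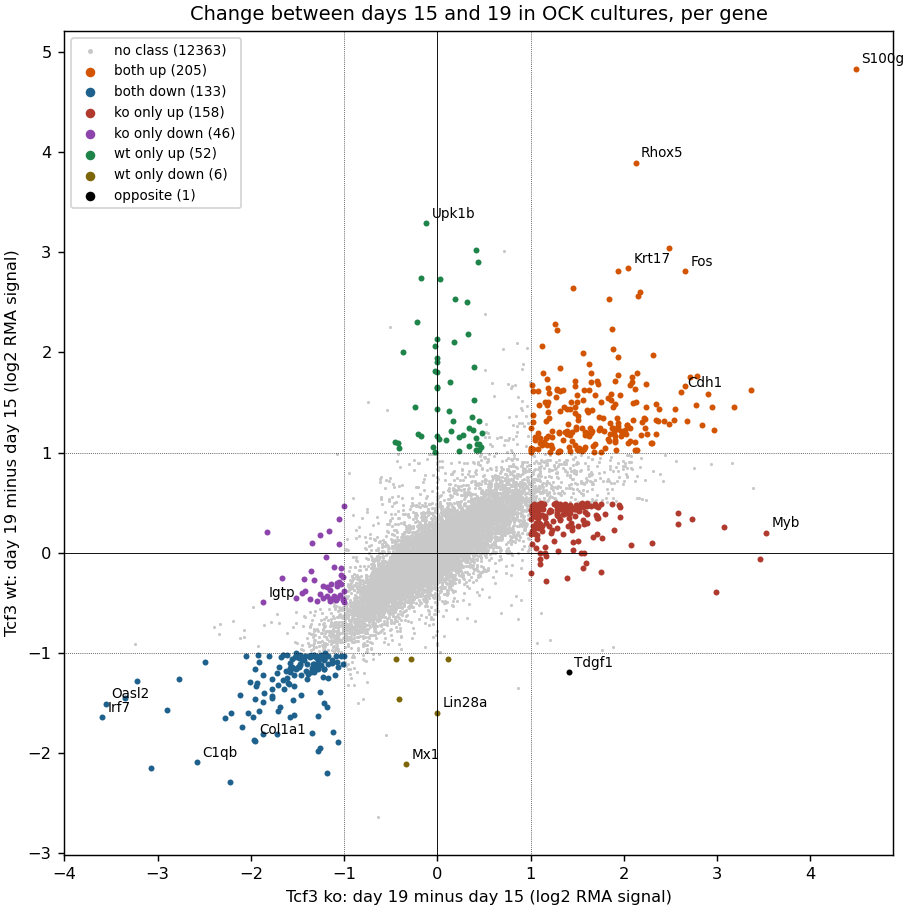
Step of each of the 12964 genes tested in ko (horizontal axis) and wt (vertical axis), day 19 minus day 15 in log2 RMA signal, 1 array per genotype and day. Colours mark the classes, with the number of genes in brackets, and dotted lines mark steps of 1 and -1. The 158 genes up in ko only lie to the right at wt steps under 0.5 in size (median 0.37). They outnumber the 52 genes up in wt only.

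The genotypes share no array, so genes chosen in one can be read in the other. Of the 690 genes up by at least 1 in ko, 205 (29.7%) were also up by at least 1 in wt and 670 (97.1%) had the same sign, against 2.41% and 49.0% of all genes tested. Their median wt step was 0.75. Of the 312 genes up in wt, 205 (65.7%) were up by at least 1 in ko and 288 had the same sign, with a median ko step of 1.31. The falls were shared in the same way. Of the 396 genes down by at least 1 in ko, 133 (33.6%) were down by at least 1 in wt, and of the 169 down in wt, 133 (78.7%) were down by at least 1 in ko. Most genes that moved in one genotype thus had the same sign in the other.

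The classes were next read on arrays that had not chosen them, days 22 and 11. The genes up in both had a median of 1.76 in ko and 1.45 in wt on day 22 relative to day 11, and 129 of 205 (62.9%) were higher by at least 1 in both, against 5.74% of all genes tested. Genes down in both had medians of -1.85 in ko and -1.54 in wt, and 95 of 133 (71.4%) were lower by at least 1 in both, against 5.11% of all. The class up in ko only was higher in wt too over this longer time: its median was 1.95 in ko and 1.39 in wt, and 127 of 158 (80.4%) were higher by at least 1 in both. Genes down in ko only had medians of -1.35 in ko and -1.16 in wt, and 24 of 46 were lower by at least 1 in both. The class up in wt only read differently, with medians of -0.11 in ko and 0.66 in wt, and 9 of 52 higher by at least 1 in both. In the mean of 5 iPSC clones relative to day 11, the medians were 2.38 for genes up in ko only, 0.85 for genes up in both, -0.55 for genes up in wt only, -2.59 for genes down in both and -2.81 for genes down in ko only.

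**Figure D2:**
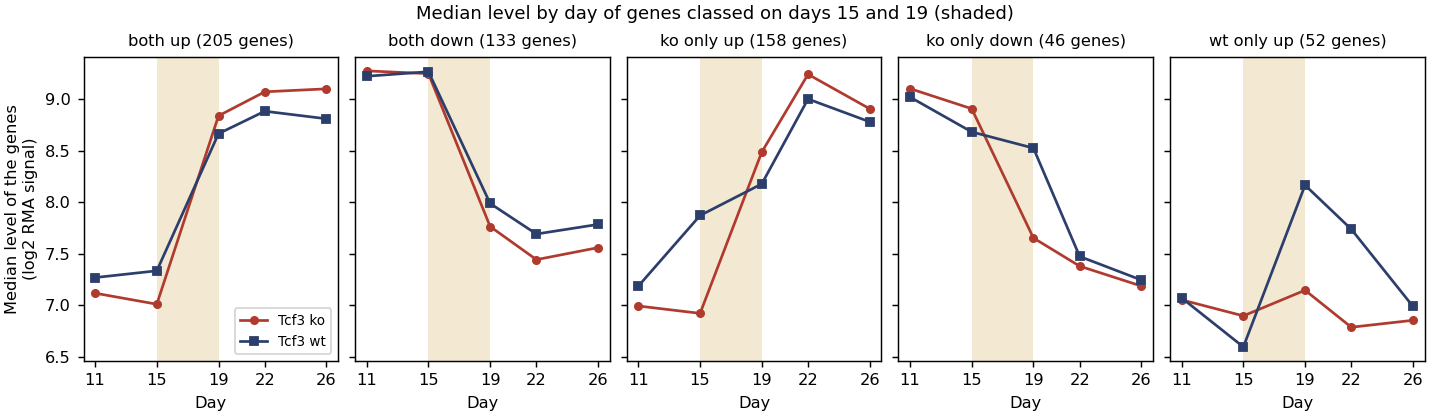
Median level (log2 RMA signal) over the genes of 5 classes on days 11, 15, 19, 22 and 26, in ko and wt, with days 15 to 19 shaded; the classes were chosen on the shaded days. For genes up in ko only the wt line was already at 7.87 on day 15 where ko was at 6.92, and for genes down in ko only wt was still at 8.53 on day 19 where ko was at 7.65.

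The gap between the genotypes was also read on each day. Of the 158 genes up in ko only, 145 (91.8%) were lower in ko than in wt on day 15, against 41.4% of all genes tested, with a median ko minus wt difference of -0.74. The rule favours such genes, since a small wt step with a large ko step needs a gap on one of the days. On day 11, which the rule did not use, 104 of the 158 (65.8%) were lower in ko, against 43.4% of all genes tested. The median difference was then -0.09. On day 19 the median difference was 0.21 and on day 22 it was 0.36. Of the 52 genes up in wt only, 51 (98.1%) were lower in ko on day 19, against 47.3% of all genes tested. The median difference was -1.31. The rule favours this gap too, since it took a large wt step with a small ko step. On day 22, which the rule did not use, 48 of the 52 (92.3%) were lower in ko, against 45.3% of all genes tested. The median difference was then -0.72. On day 26 the median difference was 0.

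Epithelial genes rose, with medians that were nearly equal in the genotypes. Of 29 epithelial junction and polarity genes tested, 21 rose and none fell, with median steps of 1.16 in ko and 1.17 in wt, against -0.04 and 0 over all genes. Dsg2, a desmosomal cadherin, had 11.18 in ko and 10.43 in wt on day 19, against 8.52 in ko and 8.76 in wt on day 15. It rose by 2.16 ± 0.27 (SE, limma fit of 10 arrays, adjusted p = 0.00852). Cdh1, the E-cadherin of adherens junctions, had 11.22 in ko and 10.69 in wt on day 19, against 8.61 in ko and 9.09 in wt on day 15. Both day 19 arrays lay above both day 15 arrays for Dsg2 and Cdh1, and Cdh1 rose by 2.11 ± 0.29 (adjusted p = 0.0101). Epcam, an epithelial adhesion protein, had 11.48 in ko and 10.56 in wt on day 19, against 9.10 in ko and 9.13 in wt on day 15, a rise of 1.91 ± 0.27 (adjusted p = 0.0104). Cldn4, a tight junction claudin, rose by 1.72 ± 0.33 (adjusted p = 0.0180), with steps of 1.65 in ko and 1.80 in wt. Krt18, a keratin of simple epithelia, did not pass (adjusted p = 0.164) and its step was 0.32 in ko and 2.50 in wt.

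Regulators of the mesenchymal state fell. Of 24 mesenchymal transcription factors, 16 fell and none rose, with median steps of -0.81 in ko and -0.60 in wt. Snai1, a zinc-finger repressor of Cdh1, had 6.43 in ko and 6.64 in wt on day 19, against 8.20 in ko and 7.99 in wt on day 15, a fall of 1.56 on the log2 scale (SE 0.21, adjusted p = 0.00932). Zeb2, another repressor of epithelial genes, had a step of -1.25 ± 0.26 (adjusted p = 0.0207). Prrx2, a homeobox gene of limb and craniofacial mesenchyme, stepped by -0.96 ± 0.24 (adjusted p = 0.0311). Osr2 was at the floor on both day 19 arrays, against 6.66 in ko and 6.50 in wt on day 15, so its step of -0.93 understates the change.

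Fibroblast matrix genes fell in part. Of 35 genes, 15 fell and none rose, with median steps of -0.60 in ko and -0.42 in wt. Col1a1, the alpha 1 chain of type I collagen, had 12.11 in ko and 12.12 in wt on day 19, against 14.08 in ko and 13.98 in wt on day 15. It fell by 1.92 on the log2 scale (SE 0.18, adjusted p = 0.00605). Its second probe set gave smaller steps of -0.90 in ko and -0.79 in wt. Thy1, a surface marker of fibroblasts, fell by 0.97 on the log2 scale (SE 0.16, adjusted p = 0.0132). Col15a1, Creb3l1 and Pltp are not on this list and are named as being among the 12 largest falls in both genotypes. Col15a1, a basement membrane collagen, had 7.51 in ko and 7.54 in wt on day 19, against 9.73 in ko and 9.82 in wt on day 15 (step -2.25 ± 0.11, adjusted p = 0.00247). Creb3l1, a transcription factor of the endoplasmic reticulum that acts on collagen genes, stepped by -1.92 ± 0.22 (adjusted p = 0.00759). Pltp, a phospholipid transfer protein, stepped by -1.91 ± 0.24 (adjusted p = 0.00852).

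The genes with the largest rises in both genotypes were of several kinds. S100g, a small calcium-binding protein, had 10.13 in ko and 10.48 in wt on day 19, against the floor in both on day 15. It was at least 25.3-fold higher (adjusted p = 0.0132). It was also at the floor on days 11 and 22 in both genotypes and in every iPSC clone, and had 8.83 in wt on day 26. Its signal was thus present on both day 19 arrays and at the floor on the days on either side. Rhox5, an X-linked homeobox gene of placenta and testis, had 10.70 in ko and 12.51 in wt on day 19, against 8.57 in ko and 8.61 in wt on day 15. It rose by 3.01 ± 0.59 (adjusted p = 0.0183). Morc1, a germ-cell protein that silences transposons in mouse testis, had 9.31 in ko and 9.77 in wt on day 19, against 6.83 in ko and 6.73 in wt on day 15, and rose by 2.76 ± 0.39 (adjusted p = 0.0104). Piwil2, which makes Piwi-bound small RNAs in the mouse germ line, rose by 2.19 ± 0.24 (adjusted p = 0.00661) and was the sole gene of 5 tested on the germ cell list to pass. Krt17, a keratin of activated and appendage keratinocytes, had 9.97 in ko and 10.46 in wt on day 19, against 7.92 in ko and 7.62 in wt on day 15 (step 2.45 ± 0.39, adjusted p = 0.0127). Myl7, an atrial myosin light chain, had 7.58 in ko and 8.46 in wt on day 19 and was at the floor in both on day 15. Cd164l2, Stk26, Map7d2 and Foxd1 made up the rest of the largest rises, with steps of 2.24 to 2.50. S100a9, a calprotectin subunit, had 9.42 in ko and 7.95 in wt on day 19, against 6.24 in ko and 6.49 in wt on day 15. It passed (step 2.32 ± 0.54, adjusted p = 0.0266), but with day 22 in place of day 19 its step was -0.0669.

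Immediate early genes, which are transcribed within minutes of growth factor or stress signals, were higher on day 19. Of 19 immediate early and heat shock genes 9 rose and none fell, with median steps of 0.37 in ko and 0.59 in wt. Fos, a subunit of AP-1, had 12.11 in ko and 12.35 in wt on day 19, against 9.46 in ko and 9.54 in wt on day 15, and rose by 2.74 ± 0.24 (adjusted p = 0.00605). Egr1, a zinc-finger factor, had 11.77 in ko and 11.87 in wt on day 19, against 9.62 in ko and 9.30 in wt on day 15 (step 2.36 ± 0.24, adjusted p = 0.00605). Ier2 and Nr4a1, an orphan nuclear receptor, rose by 1.92 ± 0.15 and 1.76 ± 0.16. For each of these 4 genes both day 19 arrays lay above both day 15 arrays. The labels do not say how the dishes were handled before lysis. Btg2, an antiproliferative gene that p53 and growth signals both induce, rose by 1.49 ± 0.19 (adjusted p = 0.00852).

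The genes of the reprogramming factors were measured too. Myc had 10.95 in ko and 10.96 in wt on day 19, against 9.08 in ko and 9.44 in wt on day 15, and rose by 1.69 ± 0.18 (adjusted p = 0.0065). Pou5f1, which encodes Oct4, had 12.17 in ko and 12.05 in wt on day 19, against 10.32 in ko and 10.94 in wt on day 15 (step 1.48 ± 0.21, adjusted p = 0.0104). Klf4 rose by 0.67 ± 0.12 (adjusted p = 0.0147) by the probe set used, but its other probe set had steps of -0.87 in ko and -0.68 in wt. With the mean of both its step was -0.0497. Sox2, which OCK leaves out, had 6.71 in ko and the floor in wt on day 19, against the floor in ko and 6.54 in wt on day 15. Whether the probe sets of Pou5f1, Myc and Klf4 also read the introduced copies was not tested.

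**Figure D3:**
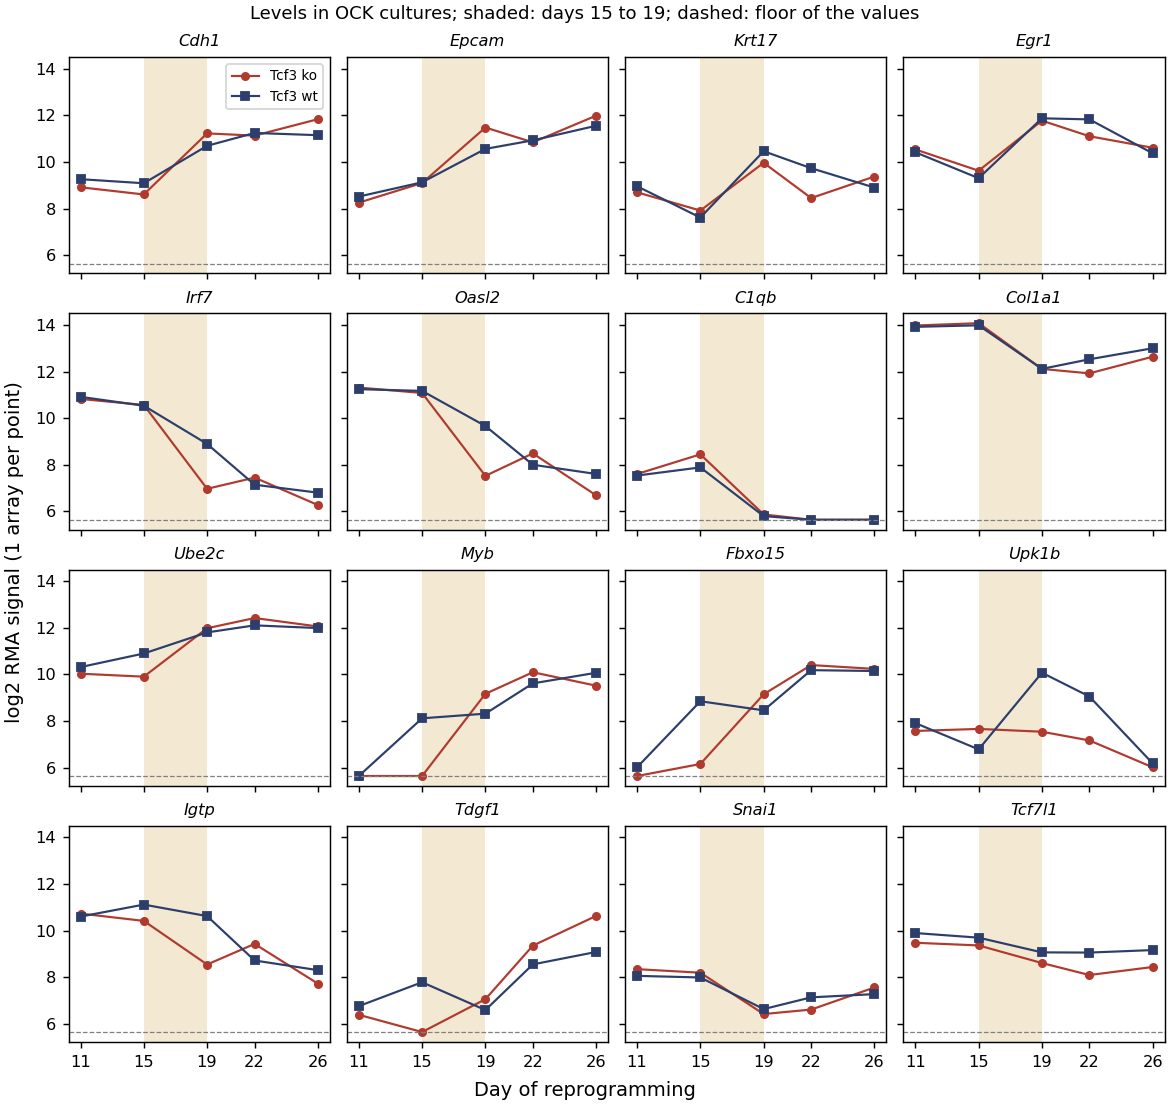
Level (log2 RMA signal) of 16 genes on days 11, 15, 19, 22 and 26 in ko and wt, 1 array per point, with days 15 to 19 shaded and the floor dashed. Epithelial genes and Egr1 step up and Irf7, Oasl2, C1qb, Col1a1 and Snai1 step down in both genotypes, while Myb and Fbxo15 were already high in wt on day 15 and Upk1b was high in wt alone on day 19.

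Interferon-induced genes fell, among them Irf7 and Oasl2, whose mean falls were the 2 largest of genes past the test and down in both. The list's median fall was larger in ko than in wt. Of 37 genes on the list 18 fell and none rose, with median steps of -1.86 in ko and -0.85 in wt. In ko 31 were lower by at least 1, and in wt 16, against 3.05% and 1.3% of all genes tested. Irf7, the transcription factor that amplifies type I interferon, had 6.97 in ko and 8.90 in wt on day 19, against 10.57 in ko and 10.54 in wt on day 15. It fell by 2.62 on the log2 scale (SE 0.48, adjusted p = 0.0166). Oasl2, a 2'-5' oligoadenylate synthetase, had 7.53 in ko and 9.66 in wt on day 19, against 11.08 in ko and 11.17 in wt on day 15 (step -2.53 ± 0.57, adjusted p = 0.0246). Usp18, a protease that removes Isg15, had 7.79 in ko and 10.06 in wt on day 19, against 10.69 in ko and 11.63 in wt on day 15 (step -2.23 ± 0.60, adjusted p = 0.0367). Gbp3, a guanylate-binding GTPase, stepped by -2.25 ± 0.66 (adjusted p = 0.0457). Ifit1, which binds foreign RNA caps, did not pass (adjusted p = 0.0600), although its level was 8.95 in ko and 11.64 in wt on day 19, against 12.30 in ko and 13.09 in wt on day 15. The chemokine Cxcl10 had 6.10 in ko and 10.40 in wt on day 19, against 9.17 in ko and 12.55 in wt on day 15, and did not pass either (adjusted p = 0.181). On day 19 all 37 genes were lower in ko than in wt, with a median difference of -1.43. On day 15 33 were lower, with a median difference of -0.26, and on days 11 and 22 the medians were 0.10 and 0.48. On day 26 30 were again lower in ko, with a median difference of -0.30. Of the 5 days the gap was widest on day 19, and on day 22 it had the opposite sign. With day 22 in place of day 19, 31 of the 37 fell, against 24.0% of all genes tested.

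The promoters of these genes are known for the interferon-stimulated response element, and its core is shown here to let the reader see it in genes that were lower in both genotypes. The core GAAANNGAAA was searched on both strands in the 250 bases before the start of each gene in RefSeq promoters (GRCm38.p6). It was present in 13 of 27 list genes with a promoter entry (48.1%), in 6 of 11 of those down by at least 1 in both genotypes (54.5%), and in 319 of 10416 of all genes tested (3.06%). Of list genes past the test, 4 of 13 (30.8%) held it. The windows below are those of the 5 genes with the largest mean step among those down in both that hold the core, written 5′ to 3′ on the gene's strand with matches in capitals. A match on the other strand reads TTTCNNTTTC, and overlapping matches run together. Cxcl10 lies at chr5:92349063-92349132 on the minus strand, Ifit1 at chr19:34640774-34640843 on the plus strand, and Gbp3 at chr3:142559974-142560043 on the plus strand. Ifit3 lies at chr19:34583377-34583446 on the plus strand and Rsad2 at chr12:26456533-26456602 on the minus strand.
Cxcl10: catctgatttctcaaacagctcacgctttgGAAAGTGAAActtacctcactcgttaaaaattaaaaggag
Ifit1: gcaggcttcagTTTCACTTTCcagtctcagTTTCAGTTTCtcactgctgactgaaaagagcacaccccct
Gbp3: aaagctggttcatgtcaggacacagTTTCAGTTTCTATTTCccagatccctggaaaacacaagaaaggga
Ifit3: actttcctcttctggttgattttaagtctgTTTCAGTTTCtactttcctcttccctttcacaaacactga
Rsad2: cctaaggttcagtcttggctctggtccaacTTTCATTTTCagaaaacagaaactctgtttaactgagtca
Of these 5 genes Gbp3 passed the test. Ifit3, another cap-binding protein, had steps of -2.77 in ko and -1.26 in wt, and Rsad2, the antiviral enzyme viperin, had steps of -1.26 in ko and -1.94 in wt. A match is a description of the letters, and binding was not measured.

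Macrophage genes fell in both genotypes together with the interferon-induced ones. Of 18 macrophage and blood genes tested, 12 fell and none rose, with median steps of -1.38 in ko and -1.10 in wt. C1qb, a chain of complement C1q, had 5.87 in ko and 5.80 in wt on day 19, against 8.45 in ko and 7.89 in wt on day 15 (step -2.33 ± 0.15, adjusted p = 0.00247). Tyrobp, a signalling adaptor of myeloid receptors, had 6.30 in ko and 6.08 in wt on day 19, against 8.26 in ko and 7.96 in wt on day 15 (step -1.92 ± 0.12, adjusted p = 0.00247). Mrc1, the mannose receptor, had 5.70 in ko and the floor in wt on day 19, against 7.57 in ko and 7.45 in wt on day 15. Ctss, a lysosomal protease of antigen-presenting cells, fell by 1.96 on the log2 scale (SE 0.28, adjusted p = 0.0104). C1qb, Tyrobp and Mrc1 were all at the floor in both genotypes on days 22 and 26. Values at the floor show no spread between the genotypes. The SE of Tyrobp (0.118) equals the prior standard deviation, the lower limit set for genes that touch the floor. The summed linear signal of the 23 list genes on the array was 3180 in ko and 3236 in wt on day 19, against 7472 in ko and 6048 in wt on day 15. Itgam, Itgax, Cx3cr1, Lyz1 and Hba-a1 were at the floor on all 4 arrays. The part that loss of macrophage RNA had in the falls of the interferon list was not tested.

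Mitotic genes rose, with a larger median step in ko than in wt. Of the 158 genes up in ko only 12 were on the mitotic list. Of 24 mitotic genes 12 rose and none fell, with median steps of 1.75 in ko and 0.48 in wt. In ko 23 of the 24 were up by at least 1, and in wt 2, against 5.32% and 2.41% of all genes tested. All 24 had a positive step in wt too, against 49.0% of all genes tested. Every one of the 24 had the larger step in ko, against 5702 of 12964 genes tested. Ube2c, a ubiquitin-conjugating enzyme of the anaphase-promoting complex, had 11.98 in ko and 11.80 in wt on day 19, against 9.90 in ko and 10.90 in wt on day 15. It rose by 1.49 ± 0.29 (adjusted p = 0.0184). Cdca8, a chromosomal passenger protein, had 8.56 in ko and 8.51 in wt on day 19, against 6.38 in ko and 7.34 in wt on day 15 (step 1.68 ± 0.29, adjusted p = 0.0146). Birc5, the survivin of the same complex, and Cenpa, the histone of centromeres, rose by 1.46 ± 0.32 and 1.45 ± 0.39. For each of these 4 genes ko was below wt on day 15 and slightly above it on day 19. Over the list the median ko minus wt difference was -0.28 on day 11, -1.09 on day 15, 0.05 on day 19 and 0.39 on day 22. On days 11 and 15 alike 23 of the 24 genes were lower in ko, and the gap was larger on day 15. A single array stands for ko on day 15.

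DNA replication genes followed the same course. Of 25 genes 17 rose and none fell, with median steps of 1.57 in ko and 0.65 in wt. The ko minus wt difference of the steps was positive for all 25, against 5702 of 12964 genes tested. Cdt1, which loads the Mcm helicase at origins, had 11.67 in ko and 11.63 in wt on day 19, against 9.13 in ko and 10.31 in wt on day 15, and rose by 1.93 ± 0.37 (adjusted p = 0.0178). Uhrf1, which recruits Dnmt1 to replicated DNA, rose by 1.56 ± 0.40 (adjusted p = 0.0322), with steps of 2.31 in ko and 0.82 in wt. Mcm5, a helicase subunit, and Gins1 rose by 1.48 ± 0.40 and 1.45 ± 0.33. On day 11 22 of the 25 were lower in ko than in wt, with a median difference of -0.19. On day 15 all 25 were lower, with a median difference of -0.89, and on day 19 the median difference was 0.10.

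Glycolysis genes rose in part. Of 17 tested, 9 rose and none fell, with median steps of 0.77 in ko and 0.34 in wt. Aldoc, an aldolase, had 9.13 in ko and 8.80 in wt on day 19, against 6.38 in ko and 7.96 in wt on day 15, and rose by 1.80 ± 0.47 (adjusted p = 0.0338). Hk2, the hexokinase of proliferating cells, rose by 1.28 ± 0.21 (adjusted p = 0.0139), and Pdk1, which holds pyruvate back from mitochondria, by 1.17 ± 0.23. Slc2a1, the glucose transporter Glut1, had 11.84 in ko and 11.66 in wt on day 19, against 9.26 in ko and 11.37 in wt on day 15, and did not pass (adjusted p = 0.102). Of 20 amino acid supply genes, 6 rose and 1 fell. Slc38a5, a glutamine and glycine transporter, had 11.64 in ko and 11.02 in wt on day 19, against 8.70 in ko and 9.57 in wt on day 15. It rose by 2.20 ± 0.35 (adjusted p = 0.0129). Gldc, which cleaves glycine in mitochondria, rose by 1.96 ± 0.29 (adjusted p = 0.0109).

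**Figure D4:**
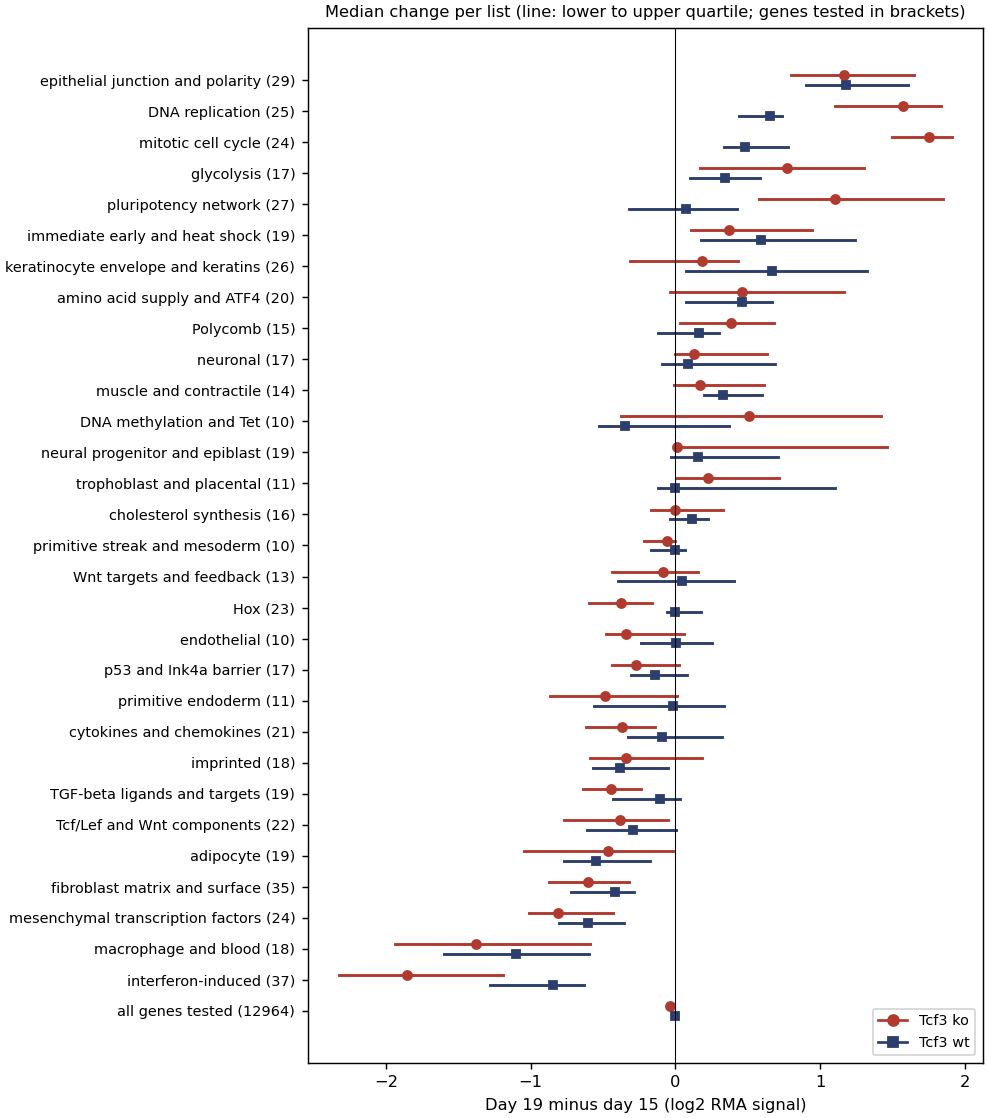
Median step (day 19 minus day 15, log2 RMA signal) of each gene list with 10 or more genes tested, in ko and wt, with lines between the quartiles of the genes and the number of genes in brackets; all genes tested are shown by their medians at the bottom. Epithelial genes had close medians of 1.16 in ko and 1.17 in wt, while mitotic genes had 1.75 in ko and 0.48 in wt and interferon-induced genes -1.86 in ko and -0.85 in wt.

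Pluripotency genes rose in few cases over both genotypes, and most of their change was in ko. Of 27 genes tested 3 (L1td1, Pou5f1 and Klf4) passed, all as rises. This share of 11.1% was below the 13.8% of all genes that rose. The probe sets of Klf4 disagreed, as given above. The median step was 1.10 in ko and 0.08 in wt. Up by at least 1 were 15 genes in ko and 1 in wt, against 5.32% and 2.41% of all genes tested. The ko minus wt difference of the steps was positive for 23 of 27, against 5702 of 12964 genes tested. L1td1, an RNA-binding protein of stem cells, had 11.34 in ko and 11.14 in wt on day 19, against 8.40 in ko and 10.25 in wt on day 15 (step 1.91 ± 0.53, adjusted p = 0.0395). Nanog, a core factor of pluripotency, had 7.41 in ko and 6.31 in wt on day 19, against the floor in ko and 7.28 in wt on day 15. It did not pass (adjusted p = 0.637). Dppa5a, an RNA-binding protein of ES cells, had 9.27 in ko and 7.91 in wt on day 19, against 7.31 in ko and 7.45 in wt on day 15 (adjusted p = 0.123). On day 15 23 of the 27 genes were lower in ko than in wt, with a median difference of -0.71, and on day 19 the median difference was 0.24. With day 22 in place of day 19, 18 of the 27 rose, against 23.2% of all genes tested.

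Several of the 8 largest steps up in ko only were of genes at the floor in ko on day 15. Myb, a transcription factor of dividing progenitors, had 9.17 in ko and 8.32 in wt on day 19, against the floor in ko and 8.12 in wt on day 15. Sox1, a neural progenitor factor, had 8.72 in ko and 8.12 in wt on day 19, against the floor in ko and 7.86 in wt on day 15. Fbxo15, an F-box gene used as a reporter of pluripotency, had 9.15 in ko and 8.46 in wt on day 19, against 6.16 in ko and 8.85 in wt on day 15. In wt, Myb and Sox1 were at the floor and Fbxo15 had 6.02 on day 11, so that all 3 were already high by day 15. Zic2, a zinc-finger gene of neural tissue, had 7.94 in ko and 7.38 in wt on day 19, against the floor in ko and 7.28 in wt on day 15. AI662270 was the exception, since wt was low on both days, with 9.10 in ko and 6.09 in wt on day 19, against the floor in ko and 6.15 in wt on day 15. By day 22 it had 8.86 in ko and 9.48 in wt. Wfdc2, Slc2a1 and Tox3 completed the 8, with ko steps of 2.58 to 2.73 and wt steps of 0.29 to 0.40. Zic5 is not in the class but passed over both genotypes, with steps of 3.16 in ko and 0.90 in wt (2.03 ± 0.54, adjusted p = 0.0369).

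Of 15 Polycomb genes 4 rose and 1 fell, 26.7% and 6.67%, against 13.8% and 13.4% of all genes. Ezh2, the H3K27 methyltransferase, had 10.57 in ko and 10.53 in wt on day 19, against 8.57 in ko and 9.66 in wt on day 15, and rose by 1.43 ± 0.32 (adjusted p = 0.0243). Jarid2, which guides Polycomb complexes, rose by 0.74 ± 0.21 (adjusted p = 0.0430). Of 10 DNA methylation and Tet genes 3 rose (Uhrf1, Dnmt1 and Tet2) and 2 fell (Dnmt3a and Apobec1). Dnmt1, the maintenance methyltransferase, rose by 1.09 ± 0.22 (adjusted p = 0.0194). Dnmt3b, a de novo methyltransferase, had 9.05 in ko and 8.51 in wt on day 19, against 7.16 in ko and 9.45 in wt on day 15, so that its step was 1.88 in ko and -0.94 in wt. Tet1, which oxidises 5-methylcytosine, stepped by 1.21 in ko and -0.87 in wt, and neither passed (adjusted p = 0.638 and 0.826).

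Tdgf1, the Nodal co-receptor Cripto, was the gene that moved by at least 1 in opposite directions. It had 7.06 in ko and 6.60 in wt on day 19, against 5.65 in ko and 7.79 in wt on day 15. On day 22 it had 9.36 in ko and 8.56 in wt, so wt was lower on day 19 than on the days on either side. The same order held for Nanog in wt, with 7.28, 6.31 and 8.43 on days 15, 19 and 22, and for Fbxo15, with 8.85, 8.46 and 10.18.

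Of the 46 genes down in ko only, 4 were on the interferon list (Igtp, Zbp1, Psmb8 and Psmb9). Igtp, an immunity-related GTPase, had 8.55 in ko and 10.63 in wt on day 19, against 10.42 in ko and 11.12 in wt on day 15. Ifi27l2a, an interferon-induced mitochondrial protein, had 10.25 in ko and 11.78 in wt on day 19, against 12.08 in ko and 11.57 in wt on day 15. Both were lower in wt by day 22, at 8.72 and 10.14. Mpeg1, a pore-forming protein of macrophages, had 6.18 in ko and 7.65 in wt on day 19, against 7.84 in ko and 7.90 in wt on day 15. Ifi47, Sp100, Il18, Isx and Dab2 had ko steps of -1.37 to -1.52 and wt steps of -0.26 to -0.46, and Dab2, an endocytic adaptor, passed over both genotypes (-0.92 ± 0.23, adjusted p = 0.0320).

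Of the 52 genes up in wt only, 4 were on the keratinocyte list (Krt14, Krt6a, Krt1 and Sprr2d). The largest step was that of Upk1b. Upk1b, a uroplakin, had 7.54 in ko and 10.07 in wt on day 19, against 7.66 in ko and 6.79 in wt on day 15. Upk3b, a uroplakin also found in mesothelium, had 7.70 in ko and 10.14 in wt on day 19, against 7.28 in ko and 7.12 in wt on day 15. Lrrn4, a leucine-rich repeat protein also known from mesothelium, had 5.68 in ko and 8.38 in wt on day 19 and was at the floor in both on day 15. Bnc1, a zinc-finger protein of keratinocytes and mesothelium, had 7.08 in ko and 8.91 in wt on day 19, against 6.89 in ko and 6.38 in wt on day 15. Each of these 4 genes was high on the wt day 19 array alone of the 4, and none passed over both genotypes. On day 22 they had 5.93 to 7.17 in ko and 7.95 to 9.05 in wt. Akr1c18, a hydroxysteroid dehydrogenase, Serpinb6b and the protease Klk6 had wt steps of 2.30 to 2.91. On the keratinocyte list 10 of 26 genes were up by at least 1 in wt and 2 in ko, against 2.41% and 5.32% of all genes tested. The median steps were 0.18 in ko and 0.66 in wt. Over both genotypes 4 of the 26 rose (15.4%) and 2 fell (7.69%), against 13.8% and 13.4% of all genes. The share that rose was thus near that of all genes. Among the rises were Ivl (1.41 ± 0.32) and Lor (1.25 ± 0.20), 2 envelope proteins. The step of Lor was -0.158 with day 22 in place of day 19. Kera, which fell, encodes keratocan, a proteoglycan of the mouse cornea and not a keratinocyte protein. Over the 28 list genes on the array, Kera included, the summed linear signal was 20460 in ko and 28674 in wt on day 19. On day 15 it was 19055 in ko and 16434 in wt. The part of keratinocytes in the class up in wt only was not tested. The 6 genes down in wt only were Mx1, Lin28a, Angptl1, Ifitm1, Kcnd2 and Prtg. Mx1, an antiviral GTPase, had the floor in ko and 6.46 in wt on day 19, against 5.98 in ko and 8.57 in wt on day 15. Lin28a, which blocks let-7 maturation, was at the floor on 3 of the 4 arrays and had 7.24 in wt on day 15, and it had 7.35 again in wt on day 22.

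The difference between the ko and the wt step was tested in a limma fit in which the genotypes' differences on days 11, 22 and 26 gave the spread. No gene passed (0.0%): the smallest adjusted p was 0.9997, and 369 of 12964 genes had an unadjusted p under 0.05. With limma's plain prior, which genes at the floor pull towards 0, 64 genes passed. The ko minus wt difference was positive for 13 and negative for 51. A negative difference can be a larger rise in wt or a larger fall in ko. Leaving out day 26 brought the smallest adjusted p to 0.298. The fit has 2 residual degrees of freedom. By the moderated statistic the most positive differences were those of Fbxo15 (3.38 ± 0.34), Sox1 (2.82 ± 0.35), Gna14, Ifit1bl1, Nanog, Mx1, Myb and Cd164l2. Those of Ifit1bl1 and Mx1 came from a larger fall in wt. Their steps were -0.64 and -0.34 in ko and -2.64 and -2.11 in wt. The most negative were those of Rspo1 (-1.83 ± 0.29), Krt4, Ifi27l2a, Cst9, Tdo2, Gkn3, E330013P04Rik and Klk6. Mx1, Cst9, Tdo2, Gkn3 and E330013P04Rik all had an SE of 0.257, the lower limit set for genes that touch the floor. Rspo1, a secreted enhancer of Wnt signalling, had the floor in ko and 7.46 in wt on day 19, against 5.66 in ko and the floor in wt on day 15. Each class of 1 genotype only therefore rests on single arrays.

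The counts of the other lists are to be read against the 13.8% of all genes that rose and the 13.4% that fell, and several lie near or below these shares. Of 19 adipocyte genes 8 fell and 1 rose, and Adipoq, the hormone adiponectin, had 9.96 in ko and 10.99 in wt on day 19, against 11.17 in ko and 11.91 in wt on day 15 (step -1.06 ± 0.13, adjusted p = 0.00804). Pparg, the adipocyte master regulator, stepped by -1.20 ± 0.20 (adjusted p = 0.0143). Of 22 Tcf/Lef and Wnt component genes 6 fell and 2 rose. The receptor Fzd1 stepped by -1.27 ± 0.24 (adjusted p = 0.0170) and the ligand Wnt5a by -1.08 ± 0.20, while Tle4, a corepressor of Tcf proteins, rose by 1.03 ± 0.22 (adjusted p = 0.0219). Tcf7l1 itself fell by 0.69 on the log2 scale (SE 0.16, adjusted p = 0.0259). Of 13 Wnt targets and feedback genes 2 rose (Myc and Znrf3) and 2 fell (Zfp703 and Apcdd1), and Lef1, Sp5 and Dkk1 were at the floor on all 4 arrays. Of 19 TGF-beta genes 4 fell and 2 rose, with Tgfb1 at -1.33 ± 0.32 and Id1, a BMP target, at 1.46 ± 0.26. Of 18 imprinted genes 5 fell and 1 rose, and Cdkn1c, a cell cycle inhibitor, stepped by -0.995 ± 0.15 (adjusted p = 0.0121). Of 17 p53 and Ink4a genes 4 fell and 2 rose: Cdkn2b fell by 0.76 on the log2 scale (SE 0.20, adjusted p = 0.0332), and Cdkn2a did not pass (-0.19 ± 0.24). Of 21 cytokine and chemokine genes 3 fell, among them Ccl5 (-1.51 ± 0.17), a chemokine that interferon also induces. Of 19 neural progenitor genes 4 rose, among them Prom1 (1.56 ± 0.18) and Pax6 (1.55 ± 0.46), and of 17 neuronal genes 3 rose, Stmn2 (1.85 ± 0.31), Crmp1 and Celf4. Of 11 primitive endoderm genes 4 fell, led by Col4a1 (-1.001 ± 0.17), a basement membrane collagen, while Gata4, Sox17 and Sox7 were at the floor on all 4 arrays. Of 11 trophoblast genes 2 rose (Elf5 and Rhox5), of 10 endothelial genes 2 rose and 1 fell, of 16 cholesterol synthesis genes 1 rose and 1 fell, of 23 Hox genes 1 fell (Hoxc6) and of 10 primitive streak genes 1 fell (Hand2). None of 14 muscle genes passed in limma, and 3 of them had an unadjusted p under 0.05. Of the 4 reprogramming factor genes 3 rose, as given above.

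Set against an established clone, the day 19 arrays were closer than the day 15 arrays. Pearson's r with the OSK wt iPSC array across 13832 genes was 0.793 in ko and 0.779 in wt on day 19, against 0.694 in ko and 0.736 in wt on day 15. The gain was 0.099 in ko and 0.043 in wt. These correlations run across genes, which are not replicates, and the 4 arrays share the reference array.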

How the data were processed

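Expression was measured on 18 arrays; the 10 OCK culture arrays were fitted and the 4 of days 15 and 19 compared. The deposited log2 values were made by the authors with RMA, per the submitters' processing notes, which name neither version nor settings. The floor is seen in the values; no label names it. Of 40508 probe sets, 31076 had 1 gene symbol, 636 several and 8796 none. Entrez identifiers of 30878 matched RefSeq genes (GRCm38.p6). Each of 17903 genes was read from its brightest probe set by mean level (7906 had more than 1). The 4939 genes at the floor on all 4 arrays were not tested.

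Tests used limma 3.58.1 in R 4.3.3 with Benjamini-Hochberg adjustment at 0.05. The step is the day 19 minus day 15 coefficient of a fit with genotype and day. The variance prior (standard deviation 0.118) was estimated without genes that touch the floor, whose own variance was then held at or above it. The code was tested on simulated data. There is 1 array per genotype and day, so no replicate arrays give a spread. The p-values of the step reflect genotype-by-day deviations. These hold differences between the courses of the genotypes as well as spread between arrays, part of which may be technical. The number of arrays limits the precision.

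The rule for named genes took the 12 largest rises and falls past the test with steps of at least 1 in both genotypes, the 8 largest in each class of 1 genotype only, the 8 most positive and most negative differences, up to 4 leading or passing members of each of 32 lists, and the genes of the factors and markers. The promoter genes, Tet1, Dnmt3b, Apobec1, members of a class that are named to fill a count and the 10 genes low on the day 19 and siRNA arrays fall outside it and were chosen after their values were seen. The members and lists were chosen with earlier results of these data known. Alternatives were averaging of probe sets, quantile normalization, median centring, genes above the floor only, limma's plain prior, leaving out days or genotypes, other fold rules, the 4 arrays alone and day 22 in place of day 19.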

Additional observations from a re-analysis of the deposited data

Results flagged for a closer look

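The median step of the DNA methylation and Tet list had opposite signs in the genotypes, 0.51 in ko and -0.35 in wt, over 10 genes. This difference between medians was not tested. The step of Tdgf1 was 1.41 in ko and -1.19 in wt, and the test of that difference (2.60 ± 0.89) did not pass in limma (adjusted p = 0.9997).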

How the results depend on the processing

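The count of 3526 calls moved most with the choice of arrays and prior. With limma's plain prior it was 2054 (925 rises, 1129 falls). It ranged from 0 to 4591 as days or genotypes were left out, with 0 to 2273 rises and 0 to 2318 falls. Without the ko or wt arrays of days 15 and 19 the lone genotype is assumed to vary like the other days. With day 22 in place of day 19, an alternative chosen after seeing the data, it was 6116 (3008 rises, 3108 falls). In that alternative 31 fibroblast genes and 31 interferon-induced genes fell, and 24 mitotic and 14 glycolysis genes rose. The 4 arrays alone with genotype as the replicate block called 3611, and the fit of 10 arrays with no replicate block 4050; the replicate block is the genotype, since samples carry no other number. The test of the difference between the steps called 64 genes (13 and 51) with the plain prior and 0 in every other setting run. With a fold rule of 0.6 the classes held 714 genes up in both, 664 down in both, 246 up in ko only, 227 down in ko only, 102 up in wt only, 30 down in wt only and 13 opposite. With 1.5 they held 43, 20, 101, 15 and 30 in the first 5 and 0 opposite. Genes down in wt only numbered 3 with the mean of probe sets and 3 among genes above the floor, and 2 genes were opposite with the mean of probe sets. Centring called 2 endothelial, 2 cholesterol synthesis and 2 Hox genes as falls, against 1 each. Steps changed sign for Klf4 with the mean of its probe sets (-0.0497), and with day 22 for Apcdd1 (0.032), Dnmt3a (0.42), Lor (-0.158), Mest (0.0228), S100a9 (-0.0669) and Srebf2 (0.15). Over single named genes and all settings, 1994 values kept direction and side of the threshold, 361 no longer passed, 85 now passed and 7 changed sign. The cause of these changes was not tested. Levels under the floor set a limit that no setting removes, and a step to or from it is understated.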
